A study of Homo sapiens with 4 samples.

Results

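Pseudogenes are genomic copies or remnants of genes that mostly no longer carry an intact reading frame. A processed pseudogene is a spliced mRNA that was copied back into the genome by retrotransposition, so it has no introns and usually sits far from its parent gene. An unprocessed pseudogene arose by duplication of a stretch of genome, keeps the exon and intron layout of its parent and often lies in a cluster of relatives, and a unitary pseudogene is a gene that lost its function with no intact copy left. Some are transcribed, from promoters they kept or from those of neighbouring genes, and reads from a young copy can be hard to tell from reads of its parent. The pseudogene transcripts described here are the rows of the deposited table whose gene biotype contains the word pseudogene, 54 of 1232 genes.

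AMO1 is a human multiple myeloma cell line, a cancer of antibody-secreting plasma cells. All cells had been transduced with a lentivirus made from the PCDH vector. In 2 libraries it was the empty vector (EV), and in the other 2 it drove overexpression of PHF19 (PHF19_OE), an accessory protein of the Polycomb repressive complex that methylates histone H3 on lysine 27. The comparison asks which transcripts differ when PHF19 is overexpressed, and the table holds only genes that the authors' own test of this contrast had passed, with a highest p-value of 0.0499. Being listed is therefore no finding, and counts of calls are set beside the same share of all listed genes.

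By the biotype column 14 of the 54 were processed, 13 unprocessed and 26 transcribed pseudogenes, and 1 was a 5S rRNA pseudogene, RNA5SP69. The transcribed class held 20 unprocessed, 4 processed and 2 unitary pseudogenes. The label was checked against sequence. In a search of the annotated transcripts, 46 of the 54 had a protein-coding relative, with an identity between 66.5% and 98.3% and a median of 89.8%. Set against the reading frame of that relative, 41 of the 46 carried an in-frame stop codon or a gap whose length was not a multiple of 3, with a stop in 24 and such a gap in 37. The other 5 showed neither over the stretch that aligned. For AC025048.6 that stretch was the whole coding sequence of AP1S2, 480 bases with 3 mismatches, so this check found no break in its frame. The relative lay on another chromosome for 15 of the 16 pseudogenes of processed origin that had one, and for 15 of the 30 of unprocessed origin. LINC00869 is a transcribed pseudogene in the deposited table and a long non-coding RNA in RefSeq.

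Several transcripts that the results turn on are shown beside the coding sequence of their closest relative, from GENCODE release 29 on GRCh38, 5′ to 3′, with the bases that differ in capitals. HLA-DRB6 and GGT4P are shown because the relative is itself in the table. HLA-DRB6 differs from HLA-DRB1 at 25 of 150 bases of this stretch, and GGT4P from GGT1 at 5 of 150.
HLA-DRB6: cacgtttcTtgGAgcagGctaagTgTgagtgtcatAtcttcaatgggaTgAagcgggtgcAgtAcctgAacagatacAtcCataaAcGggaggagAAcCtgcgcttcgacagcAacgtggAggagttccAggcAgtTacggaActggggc
HLA-DRB1: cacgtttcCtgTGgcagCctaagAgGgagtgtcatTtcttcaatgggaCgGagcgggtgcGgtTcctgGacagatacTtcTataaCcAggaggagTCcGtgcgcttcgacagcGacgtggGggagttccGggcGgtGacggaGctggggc
GGT4P: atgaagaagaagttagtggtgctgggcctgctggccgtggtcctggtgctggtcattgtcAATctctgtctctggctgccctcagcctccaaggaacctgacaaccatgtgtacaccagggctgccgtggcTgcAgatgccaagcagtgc
GGT1: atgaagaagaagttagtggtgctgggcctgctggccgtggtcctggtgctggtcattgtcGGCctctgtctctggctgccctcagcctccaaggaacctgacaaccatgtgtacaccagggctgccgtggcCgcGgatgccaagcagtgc

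In the next pairs, AC139769.1 had the lowest adjusted p of the 54 and AC124864.2 is a processed copy that was higher with PHF19, and each holds a stop within the frame of its relative. In AC139769.1 the triplet tAg after the letters ctggaggag falls on codon 27 of the zinc finger gene ZNF254. In AC124864.2 the triplet Tga after gtagat falls on codon 190 of NCOR1, a nuclear receptor corepressor.
AC139769.1: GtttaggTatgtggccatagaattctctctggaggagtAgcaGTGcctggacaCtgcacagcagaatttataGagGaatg
ZNF254: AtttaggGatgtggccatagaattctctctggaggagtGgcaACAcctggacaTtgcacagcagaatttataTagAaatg
AC124864.2: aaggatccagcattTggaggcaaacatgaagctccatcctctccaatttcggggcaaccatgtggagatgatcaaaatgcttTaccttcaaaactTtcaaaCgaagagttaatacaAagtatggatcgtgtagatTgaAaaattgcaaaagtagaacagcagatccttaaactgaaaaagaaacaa
NCOR1: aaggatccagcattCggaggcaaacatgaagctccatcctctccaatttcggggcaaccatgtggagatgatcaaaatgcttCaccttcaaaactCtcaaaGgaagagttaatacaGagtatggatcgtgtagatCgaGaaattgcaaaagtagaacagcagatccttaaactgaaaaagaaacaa

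The library totals lay between 23835805 and 35258920 reads. The listed genes held 7.07% of the reads in EV replicate 1 and between 3.97% and 4.38% in the other 3 libraries, so EV replicate 1 stands apart in this table. PHF19 had 1842 and 4506 normalized counts (counts divided by the authors' factor for the library) in EV and 9670 and 8777 in PHF19_OE, with an adjusted p of 0.0897 in the authors' deposited table. Of 10 plasma cell markers only CD38 was listed, at 3228 and 2138 normalized counts in EV and 901 and 660 in PHF19_OE. Of the marker lists of other cells the table held 1 of 5 B cell markers (CD79A), 2 of 5 T and NK cell markers (CD3E, TRAC), 1 of 5 myeloid (ITGAM) and 1 of 4 epithelial, fibroblast or endothelial (CDH1), all with lower means in PHF19_OE, and 1 of 3 erythroid (HBB), with a higher one. CD79A had 211 and 65.5 normalized counts in EV and 1.20 and 4.09 in PHF19_OE, CD3E and TRAC together 85.5 and 40.1 against 2.40 and 5.12, and ITGAM 94.3 and 15.6 against 0 in both. CDH1 had 99.0 and 9.78 against 1.20 and 0, and HBB 58.6 and 24.4 against 233 and 180. Their part in the results was not tested. Every library is labelled as the AMO1 line, and bulk samples cannot tell fewer cells with such RNA from less RNA per cell.

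The pseudogenes split in both directions, and the split of the 54 was 30 higher and 24 lower also with TMM and with DESeq2's own size factors. Those factors rest on the listed genes alone, which were selected for differing. The selection also left no pseudogene near 0, so an unchanged split shows little. By the deposited values 30 had a higher mean in PHF19_OE and 24 a lower one, which is 55.6% higher, against 36.4% higher over all listed genes, 35.1% of the listed protein-coding genes and 36.7% of the listed long non-coding RNAs. The median log2 fold change of the 54 was 1.36 and that of all listed genes was -1.33. Without EV replicate 1 they were 1.13 and -0.42, with TMM factors 1.93 and -0.44, and with DESeq2's own size factors 2.10 and -0.31. Because of the selection, no pseudogene had a deposited value between -1.16 (PPIEL) and 1.14 (STAG3L1). The median therefore takes the sign of the larger side, and a few more lower genes would turn it. It is not a measure of a typical shift. Pseudogenes were low in level, with a median mean of 25.2 normalized counts against 161, and 33 of the 54 had a mean under 50. Among listed genes with a mean under 50, 60.6% of pseudogenes and 41.6% of all listed genes were higher in PHF19_OE.

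With 0.05 as the limit on the adjusted p of the authors' deposited table, 15 of the 54 passed, which is 27.8%, against 23.8% of all listed genes and 1.74% of the 16881 genes behind the adjusted p. Of the 15, 6 were higher in PHF19_OE, 11.1% of the 54 against 9.09% of all listed genes, and 9 were lower, 16.7% against 14.7%. These shares are near the background of the table. The groups did not overlap for 52 of the 54, against 90.5% of all listed genes. Refits of the listed counts gave other calls. With edgeR's quasi-likelihood test 0 of the 54 passed at an adjusted p of 0.05 (22 higher and 15 lower had an unadjusted p under 0.05). DESeq2 called 1 higher and 5 lower with the authors' size factors, and 7 higher and 3 lower with its own, which moved the median log2 fold change of all listed genes by 0.96. These refits estimate the spread from genes selected by this same contrast. They cannot show whether the choice of test or the selection changed the calls.

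**Figure D1:**
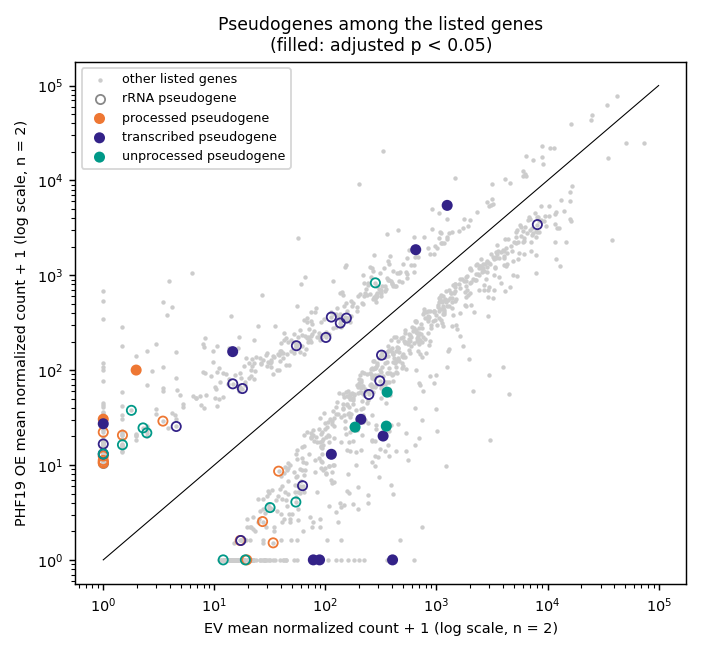
Mean normalized count plus 1 in EV (x axis) against PHF19_OE (y axis), both on log scales, n = 2 libraries a group. Grey points are the other listed genes and circles are pseudogenes coloured by class, filled where the adjusted p was under 0.05; 33 of the 54 pseudogenes had a mean under 50.

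In 17 of the 54, 31.5%, both libraries of 1 group held 0 counts, against 13.8% of all listed genes. For 11 of them the EV libraries were the ones at 0 and for 6 the PHF19_OE libraries. Among listed genes with a mean under 50 the shares were 48.5% of pseudogenes and 44.8% of all listed genes, and the part of level in the difference was not tested. For these genes only a bound on the fold can be given, taken against 3 counts over the silent group.

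Among the pseudogenes that fell, AC139769.1 had the lowest adjusted p. This transcribed unprocessed pseudogene (ENSG00000233836, chromosome 19, 23762944 to 23833314, plus strand, GRCh38) lies in a cluster of KRAB zinc finger genes, which encode DNA-binding repressors. It had 439 and 364 normalized counts in the EV libraries and 0 in both PHF19_OE libraries. The groups were far apart, with a mean of 401 ± 53.1 (SD, n = 2) against 0, at least 242-fold lower, and an adjusted p of 8.49e-10 in the authors' deposited table. Only 0.6% of its 50-base stretches occur exactly in another annotated gene. ZNF726, a zinc finger gene 81562 bases away, had a higher mean in PHF19_OE, with 49.1 and 98.8 normalized counts in EV, 242 and 156 in PHF19_OE and an adjusted p of 0.502.

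HLA-DRB6 (ENSG00000229391, chromosome 6, 32552713 to 32560022, minus strand) is a transcribed remnant of a beta chain gene of HLA-DR, the MHC class II molecule that presents peptides to helper T cells. It had 70.5 and 105 normalized counts in EV and 0 in both PHF19_OE libraries, at least 52.8-fold lower, with an adjusted p of 6.28e-05 in the authors' deposited table. HLA-DRB1, the functional beta chain gene 18747 bases away, had 578 and 688 in EV and 13.2 and 17.4 in PHF19_OE, 41.4-fold lower. Both were lower in each PHF19_OE library than in each EV library. Per length HLA-DRB6 stood below HLA-DRB1 in every library, at an FPKM (reads scaled to gene length and library size) of 1.90 and 2.74 in EV against 16.8 and 19.4. In the reference annotation the transcripts share only 2.0% of the 50-base stretches of HLA-DRB6. The sequences of these genes in the AMO1 cells were not read.

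BAGE2 (ENSG00000187172, chromosome 21, 10413477 to 10516431, plus strand) is one of a group of genes first known as tumour antigens, and its closest coding relative is KMT2C, a histone H3 lysine 4 methyltransferase, with an identity of 97.7%. It had 108 and 46.0 normalized counts in EV and 0 in both PHF19_OE libraries. The fall was at least 46.3-fold, with an adjusted p of 0.000216 in the authors' deposited table. With 1 added to each normalized count, EV replicate 1 was 2.32 times EV replicate 2. Other genes hold 46.0% of its 50-base stretches, so its reads could have been counted elsewhere or come from elsewhere.

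GGT4P (ENSG00000280208, chromosome 13, 18253526 to 18270822, minus strand) is an unprocessed copy of GGT1, the gamma-glutamyltransferase that breaks down glutathione at the cell surface. It had 234 and 470 normalized counts in EV and 15.6 and 33.8 in PHF19_OE, a 14.3-fold fall of the mean with an adjusted p of 2.20e-06 in the authors' deposited table. GGT1 itself had 7159 and 6086 in EV and 3605 and 4071 in PHF19_OE, 1.73-fold lower, with an adjusted p of 0.558, and its direction flipped with DESeq2's own size factors. The FPKM of GGT4P was 4.92 and 9.56 in EV and 0.319 and 0.686 in PHF19_OE, where GGT1 was at 57.8 and 47.6 and then at 28.4 and 31.9. Of the 50-base stretches of GGT4P, 31.7% occur in another gene, most often in GGT3P. AL356585.4, an unprocessed pseudogene 75061 bases away whose relative is the ankyrin repeat gene ANKRD36C, had 21.4 and 14.7 normalized counts in EV and 0 in both PHF19_OE libraries, with an adjusted p of 0.203.

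AC024940.1 (ENSG00000177359, chromosome 12, 31111652 to 31201235, minus strand) aligned over a short stretch with PZP, a protease inhibitor of the alpha-2-macroglobulin family, at an identity of 66.5%. It had 198 and 462 normalized counts in EV and 31.2 and 7.16 in PHF19_OE, 17.2-fold lower with an adjusted p of 2.90e-05 in the authors' deposited table. The libraries within each group differed by more than 2-fold, and the groups did not overlap. Other genes hold 38.0% of its 50-base stretches, most of them AC092821.1.

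The other 4 that fell were lower by 6.22-fold to 9.37-fold. NBPF13P, a member of the neuroblastoma breakpoint family on chromosome 1, had 285 and 431 normalized counts in EV and 38.5 and 76.8 in PHF19_OE, with an adjusted p of 0.00114 in the authors' deposited table. PKD1P1, one of several partial copies of the polycystic kidney disease gene PKD1 on chromosome 16, had 179 and 189 in EV and 14.4 and 33.8 in PHF19_OE. It is the least certain of these, since 98.6% of its 50-base stretches occur in other annotated genes. ANKRD18DP, a copy of ankyrin repeat genes on chromosome 3 with 7 in-frame stops, had 136 and 88.0 in EV and 9.61 and 14.3 in PHF19_OE. AL357143.1, a transcribed unitary pseudogene on chromosome 1, had 144 and 271 in EV and 15.6 and 43.0 in PHF19_OE. The adjusted p in the authors' deposited table was 0.00290 for PKD1P1, 0.00601 for ANKRD18DP and 0.0109 for AL357143.1. In all 4 both PHF19_OE libraries were below both EV libraries.

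Among the pseudogenes that rose, AC124864.2 had the lowest adjusted p. This processed fragment of NCOR1 (ENSG00000279864, chromosome 21, 9558970 to 9559155, plus strand) is 186 bases long. It had 0 and 1.96 normalized counts in EV and 102 and 96.2 in PHF19_OE, and its adjusted p in the authors' deposited table was 5.85e-05. The EV libraries together held 2 counts, so the rise is given as a ratio of counts, 113-fold with an exact 95% interval of 30.8 to 941 that covers counting error only. The 2 PHF19_OE libraries were close to each other. Of its 50-base stretches 16.8% occur in another gene, most often in NCOR1P2.

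ANKRD36BP2 and LGALS17A were the risers with substantial levels in both groups. ANKRD36BP2 (ENSG00000230006, chromosome 2, 88765807 to 88806612, plus strand), a transcribed copy of an ankyrin repeat gene, had 1175 and 1319 normalized counts in EV and 6925 and 3979 in PHF19_OE. Its mean was 4.37-fold higher, 1247 ± 102 against 5452 ± 2083 (SD, n = 2), with an adjusted p of 0.000132 in the authors' deposited table. LGALS17A (ENSG00000226025, chromosome 19, 39679374 to 39686373, plus strand) belongs to the galectins, which bind galactose-containing sugars, and its closest relative was LGALS13. It had 620 and 679 in EV and 2255 and 1462 in PHF19_OE, 2.86-fold higher with an adjusted p of 0.0236. In both, PHF19_OE replicate 1 was the higher of its group and the EV libraries lay close together.

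SLC25A24P1 (chromosome 1), a copy of a mitochondrial carrier of ATP and phosphate, had 21.4 and 5.87 normalized counts in EV and 222 and 89.0 in PHF19_OE, 11.4-fold higher with an adjusted p of 0.00559 in the authors' deposited table, and 31.2% of its 50-base stretches occur in other genes. ANKRD20A10P (chromosome 13) had 0 in both EV libraries and 24.0 and 34.8 in PHF19_OE, at least 22.4-fold higher with an adjusted p of 0.0215. TUBBP9 (chromosome 6), a copy of a beta tubulin gene, likewise had 0 in both EV libraries and 36.0 and 16.4 in PHF19_OE, at least 20.0-fold higher with an adjusted p of 0.0397. No 50-base stretch of ANKRD20A10P or TUBBP9 occurs in an annotated transcript of another gene. The highest count of either in any library was 34 reads. Of 4 ankyrin repeat pseudogenes, a group chosen after the values were seen, ANKRD36BP2 and ANKRD20A10P rose, ANKRD18DP fell and AL356585.4 did not pass; a group chosen in this way is not set against the table.

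**Figure D2:**
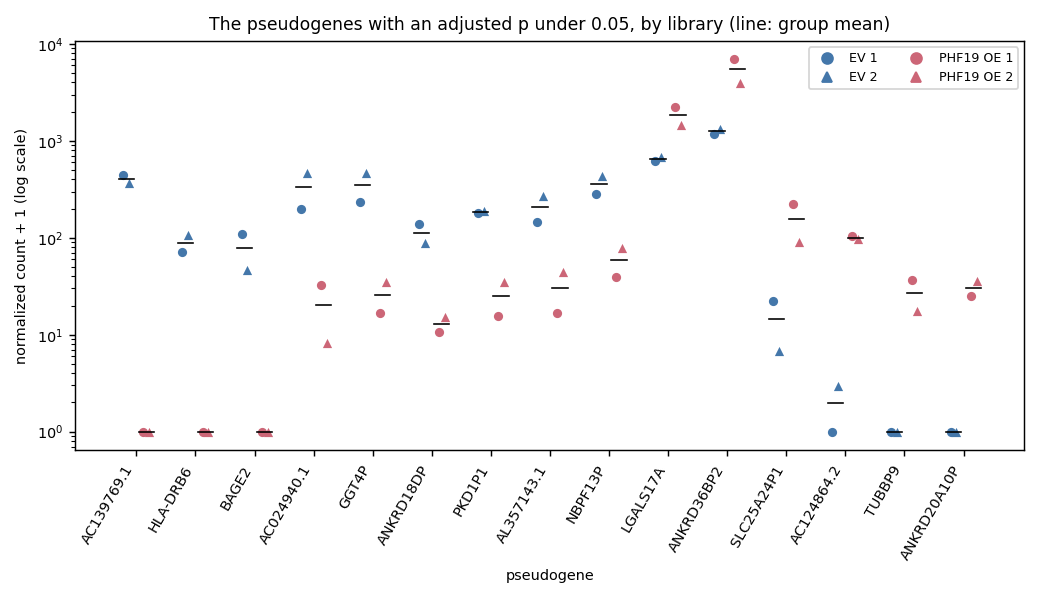
Normalized count plus 1 (log scale) of the 15 pseudogenes with an adjusted p under 0.05, each library as a point (EV blue, PHF19_OE red; circle replicate 1, triangle replicate 2) and each group mean as a line. The 9 on the left were lower and the 6 on the right higher in PHF19_OE, and the groups overlap in none of the 15.

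Read by class, 2 of 14 processed pseudogenes passed, both higher, and 3 of 13 unprocessed, all lower. Of 26 transcribed pseudogenes 4 passed as higher and 6 as lower. The shares that passed were 14.3%, 23.1% and 38.5%, against 23.8% of all listed genes, and no difference between classes was tested. The processed class was the lowest in level, with a median mean of 10.3 normalized counts, followed by the unprocessed at 16.7 and the transcribed at 118. In the processed class 7 of 14 processed pseudogenes were at 0 in 1 group, 6 of them in EV, against 13.8% of all listed genes and 44.8% of those with a mean under 50.

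The processed pseudogenes that did not pass were all low. AC091429.1, a copy of the ribosomal protein gene RPL10A with 3 in-frame stops, had 0 in both EV libraries and 9.61 and 32.7 normalized counts in PHF19_OE, with an adjusted p of 0.103. AC093536.1, VN1R42P, AC037487.3 and AC004975.1 were also at 0 in both EV libraries, with 2.40 to 20.5 normalized counts in PHF19_OE. AL583832.1 and AC234782.3 were at 0 in EV replicate 1 and at 9.21 to 39.7 in PHF19_OE. Z82188.1, a copy of RPL39 on chromosome 22, had 39.6 and 34.2 in EV and 6.01 and 9.21 in PHF19_OE, with an adjusted p of 0.670. PRDX3P1 and AC073136.2 had at most 43.6 in EV and 3.07 in PHF19_OE. Of the 3 pseudogenes of ribosomal protein genes 2 had a higher mean and 1 a lower mean in PHF19_OE, and 0 passed.

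HMGN2P40 was highest in EV replicate 1. It is a copy of the nucleosome-binding protein gene HMGN2 and had 61.8 normalized counts there, 3.91 in EV replicate 2, and 0 and 1.02 in PHF19_OE. It lies inside CLN6, a gene for a protein of the endoplasmic reticulum, which had 9118 and 6368 in EV and 4199 and 4815 in PHF19_OE. The direction of CLN6 flipped with TMM factors and with DESeq2's own size factors. EV replicate 2 alone carried AC243312.1, at 37.2 normalized counts against 0 in the other 3 libraries.

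Among the unprocessed pseudogenes that did not pass, UNC93B3 had the highest level. It is a copy of UNC93B1, which escorts nucleic acid-sensing Toll-like receptors to endosomes. It had 187 and 375 normalized counts in EV and 1012 and 650 in PHF19_OE, 2.96-fold higher with an adjusted p of 0.117. CASP1P2, a copy of the inflammatory protease gene CASP1, had 1.58 and 0 in EV and 32.4 and 40.9 in PHF19_OE, just outside the threshold at 0.0513. Next to it CARD17, whose protein resembles the CARD domain of caspase-1, had 0 and 2.93 in EV and 107 and 207 in PHF19_OE, with an adjusted p of 8.07e-07 in the authors' deposited table. AC087481.2, AC126177.6, AC126603.1 and AC073648.3 had at most 2.93 in EV and 6.14 to 25.6 in PHF19_OE. TPSP2, AL356585.4 and AC233968.1 stood at 10.3 to 59.6 in EV and at most 6.14 in PHF19_OE. All of AC233968.1 occurs in other annotated genes.

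The transcribed pseudogene AL109918.1 (chromosome 6, 52664366 to 52669155, plus strand) was the most abundant of the 54. It had 9199 and 6988 normalized counts in EV and 3289 and 3551 in PHF19_OE, 2.37-fold lower with an adjusted p of 0.0535, just outside the threshold. Its log2 fold change of -1.24 was -0.47 with TMM factors and -0.31 with DESeq2's own size factors. No 50-base stretch of it occurs in an annotated transcript of another gene. In total the 54 pseudogenes held 0.0546% and 0.0455% of the reads in the EV libraries and 0.0567% and 0.0420% in the PHF19_OE libraries, so the groups overlapped in this sum.

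The remaining transcribed pseudogenes did not pass. ZNF826P, DUXAP9, HERC2P9, GOLGA2P5, STAG3L1 and CHEK2P2 had means 2.20-fold to 3.73-fold higher in PHF19_OE. TP73-AS1, ARHGAP23P1, AC142381.3 and AL390719.1 had at most 25.3 normalized counts in EV and 10.8 to 84.1 in PHF19_OE. PPIEL, a copy of a cyclophilin gene, had 393 and 245 in EV and 161 and 125 in PHF19_OE. SSR4P1, FKBP9P1 and LINC00869 were highest in EV replicate 1. LINC00869 had 466 there, 24.4 in EV replicate 2, and 70.9 and 37.9 in PHF19_OE, so its groups overlapped. The EV replicates were also compared over the 54, with 1 added to each normalized count. EV replicate 1 was more than 2-fold above EV replicate 2 in 12, which is 22.2%, against 40.6% of all listed genes. EV replicate 2 was more than 2-fold above in 7 of the 54 and in 167 of the 1232. RNA5SP69 had 0 in both EV libraries and 12.0 and 7.16 in PHF19_OE.

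**Figure D3:**
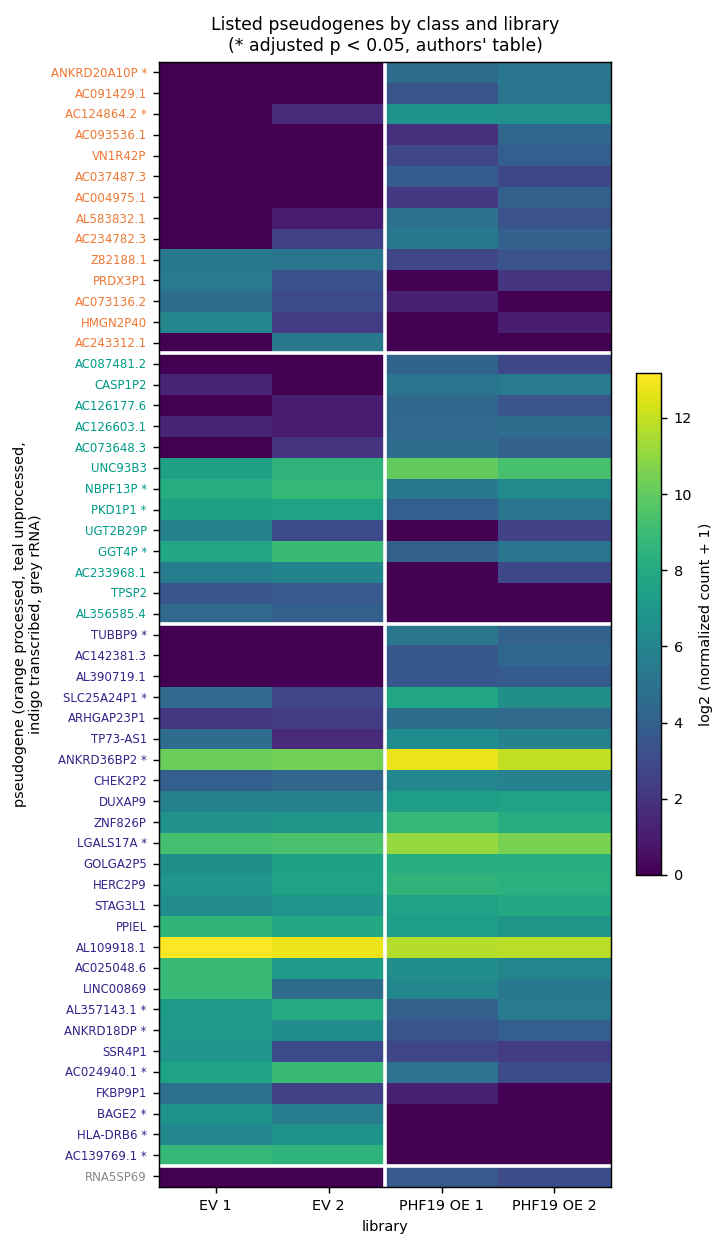
Log2 of the normalized count plus 1 for all 54 pseudogenes (rows, grouped by class and ordered by fold change within it) in the 4 libraries (columns); a star marks an adjusted p under 0.05. Of the 14 processed pseudogenes at the top 9 had a higher mean in PHF19_OE, and 6 of them held 0 counts in both EV libraries.

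For 4 of the 54 the closest coding relative was listed. In all 4 pairs pseudogene and relative had the lower mean in PHF19_OE, as had 784 of all 1232 listed genes. GGT1 flipped with DESeq2's own size factors. Besides HLA-DRB6 and GGT4P the pseudogenes of these pairs were AC025048.6 and UGT2B29P. More distant listed relatives went both ways. For UGT2B29P, UGT2B15 had a lower mean and UGT2B28 a higher one. For AC139769.1, which fell, ZNF726, ZNF43, ZNF257, ZNF737 and ZNF506 had higher means and ZNF160 a lower one. Its other listed relatives are not described here. AC025048.6 is a transcribed processed copy on chromosome 17 of AP1S2, a subunit of the clathrin adaptor AP-1. It had 463 and 153 normalized counts in EV and 87.7 and 64.5 in PHF19_OE, with an adjusted p of 0.112, while AP1S2 had 6971 and 4059 in EV and 1888 and 1526 in PHF19_OE, with an adjusted p of 0.00828 in the authors' deposited table. In both genes EV replicate 1 was the highest library. AP1S2 holds 50.3% of the 50-base stretches of AC025048.6, so reads of the pair may not be separable.

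UGT2B29P (chromosome 4) lies 19537 bases from UGT2B17, an enzyme that couples glucuronic acid to androgens. It had 54.7 and 6.84 normalized counts in EV and 0 and 5.12 in PHF19_OE, so its groups were nearly touching, and its adjusted p was 0.659. UGT2B17 had 5639 and 2716 in EV and 654 and 724 in PHF19_OE, 6.07-fold lower with an adjusted p of 7.77e-06 in the authors' deposited table. By symbol or description a single pair was found, AC243312.1 with NFIL3, a leucine zipper transcription factor, although the sequence search gave AC243312.1 no coding relative. NFIL3 had 6621 and 2864 in EV and 1929 and 1631 in PHF19_OE, and did not pass.

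**Figure D4:**
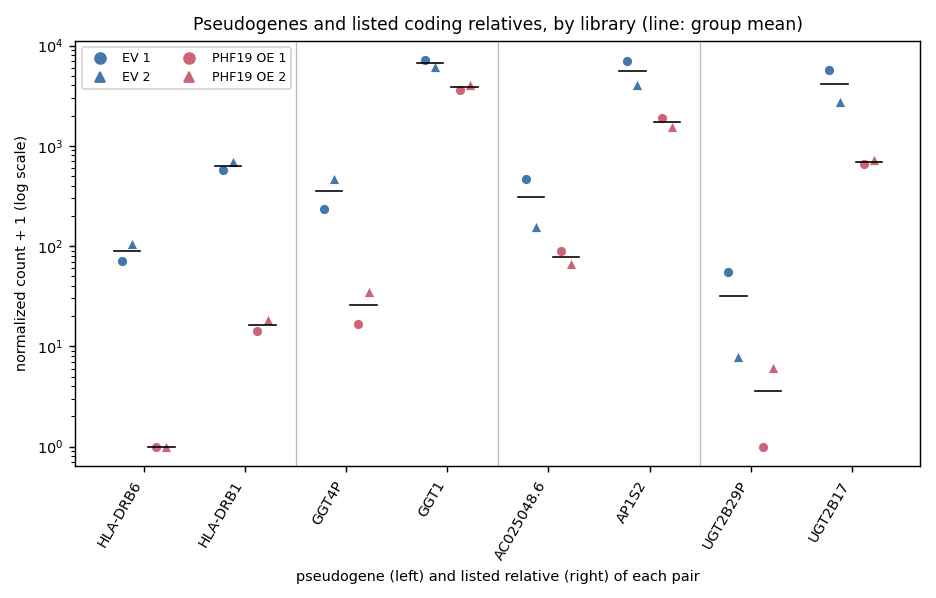
Normalized count plus 1 (log scale) of 4 pseudogenes and, to the right of each, its listed coding relative, with each library as a point and each group mean as a line. In each of the 4 pairs both genes had a lower mean in PHF19_OE (GGT1 flipped with DESeq2's own size factors), and the UGT2B29P libraries lay closest together across groups, with 6.84 in EV replicate 2 and 5.12 in PHF19_OE replicate 2.

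A listed gene lay within 100 kb of 17 pseudogenes, and the nearest had the same direction for 16 of them, 94.1%, where 264 of 316 listed genes with such a neighbour, 83.5%, had the same direction as it. The exception was AC139769.1 with ZNF726. The 2 pairs of neighbouring pseudogenes, GGT4P with AL356585.4 and CHEK2P2 with AC126603.1, enter this count from both sides. TUBBP9 lay 29718 bases from DAAM2, which had 0 and 1.96 normalized counts in EV and 32.4 and 7.16 in PHF19_OE. ANKRD18DP lay 9802 bases from LMLN, which had 465 and 272 in EV and 145 and 134 in PHF19_OE. The adjusted p of DAAM2 was 0.549 and that of LMLN 0.231.

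How far reads can be assigned to a pseudogene varies. Shared stretches were sought in annotated transcripts only, so introns and unannotated sequence were not searched. The median pseudogene shared 12.0% of its 50-base stretches with another annotated gene, 13 shared none and 7 shared over 50%. Among the 7 only PKD1P1 had passed. Of the other called pseudogenes, NBPF13P shared 29.6%, ANKRD36BP2 8.49% and LGALS17A 4.52%. The sources used here give neither the read length nor the treatment of reads that map to several places, so the values of PKD1P1, AC233968.1, DUXAP9, STAG3L1, HERC2P9, ARHGAP23P1 and AC025048.6 are uncertain as values of these loci. AC142381.3 and ARHGAP23P1 are both copies of ARHGAP23 that share sequence, and both had higher means in PHF19_OE.

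**Figure D5:**
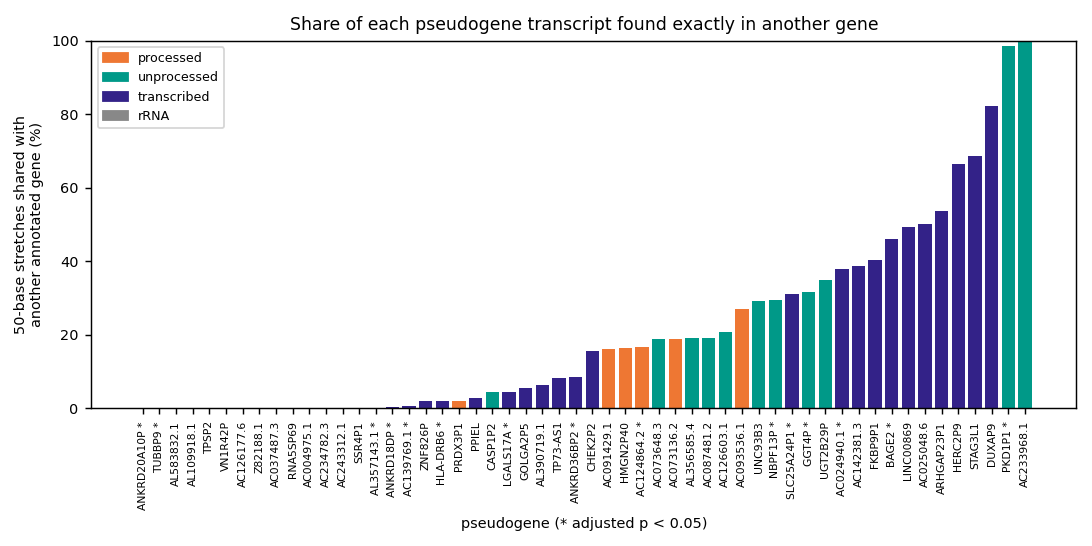
Share of the 50-base stretches of each pseudogene's transcripts that occur exactly in another annotated gene (y axis, percent), ordered from lowest to highest and coloured by class; a star marks an adjusted p under 0.05. The bars of 13 pseudogenes are at 0 and 7 exceed 50%.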

How the data were processed

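RNA of AMO1 cells was made into libraries with a SMARTER mRNA kit, per the labels' protocols. Per the submitters' processing notes the reads were placed on hg38; no source used here names the aligner, the counter, the strand setting or the authors' statistical test. Per the file headers, the authors deposited raw counts per gene, normalized values (a signal scale), FPKM, and a log2 fold change, p-value and adjusted p-value for PHF19_OE against EV. The deposited normalized values equal the count divided by 1.26, 1.02, 0.832 and 0.977 for EV replicates 1 and 2 and PHF19_OE replicates 1 and 2. The labels do not say that replicates were separate cultures, so p-values measure the spread between these libraries, which may be technical. The library totals returned by the FPKM are in the report.

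The authors' adjusted p under 0.05 was the call, since the table holds selected genes. Counts were retested with edgeR 4.0.16 (quasi-likelihood) and DESeq2 1.42.0 in R 4.3.3, adjusted over 16881 genes. The settings were other scalings, a low-count filter, a replicate block and each library left out. Both tools were run with the authors' size factors on simulated counts in which most genes did not change. The listed genes were all selected for differing, so that run does not show how the refits behave on them. Folds of genes at 0 in a group are bounds taken at 3 counts over that group; where a group held 1 to 3 counts, the ratio of counts and its exact interval are given. All 1232 coordinates equal those of GENCODE release 29. Relatives were the protein-coding genes that best matched a pseudogene transcript over at least 50% of its length and 100 coding bases (BLAST 2.17.0). Named genes are the called pseudogenes, the 3 most abundant of each class, those with a listed parent, and listed genes overlapping them; other members and neighbours were named after their values were seen, to account for all 54. Some sequences are not reported here. The members and lists were chosen with earlier results of these data known. Symbols and descriptions gave 0 pseudogenes of mitochondrial, HNRNP, immunoglobulin, keratin or PRAME genes, 2 of ZNF genes (1 called) and 1 of HLA genes. By sequence, the closest coding relative of AL109918.1 was HNRNPAB, at an identity of 77.0%. No permutation test was run, because 2 libraries against 2 allow no p below 0.333.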

Additional observations from a re-analysis of the deposited data

How the results depend on the processing

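The authors' test called 6 pseudogenes higher and 9 lower. With edgeR and the authors' size factors the numbers were 0 and 0 (22 and 15 at an unadjusted p under 0.05), with TMM factors of the listed genes 0 and 0, and after filterByExpr 0 and 0. DESeq2 with the authors' size factors gave 1 and 5, and with its own 7 and 3. The replicate block gave 1 and 5; the labels tie the numbers to no shared batch, replicate differences of the 2 groups had r = 0.21 across genes, and 2 pairs are too few to show whether the numbers pair the samples. Leaving out each library gave 0 to 9 higher and 0 to 15 lower: 6 and 12 without EV replicate 1, 9 and 15 without EV replicate 2, and 0 and 0 without either PHF19_OE replicate; a lone library was assumed to vary like the other group. A threshold of 0.01 left 3 and 8. At least 10 counts in each library of the higher group, or more than 2-fold from each EV library singly (chosen after seeing the data), left 6 and 9. Without EV replicate 1 the means of 31 were higher and of 23 lower. The median log2 fold change of the pseudogenes lay between 1.13 and 1.59 with other pseudocounts, a level cut or a library left out, while that of all listed genes went from -1.33 to -0.42 without EV replicate 1. Fits added after seeing the data gave 1.93 with TMM (all listed -0.44), 2.10 with DESeq2's own factors (-0.31) and 1.39 with the replicate block (-1.18). With a mean of at least 10, 39 of 40 pseudogenes, 97.5%, and 90.2% of all listed genes did not overlap. By sequence 4 pairs shared a direction, by symbol or description 1. Of 29 named genes, 18 were called by the authors: the 15 pseudogenes, HLA-DRB1, AP1S2 and UGT2B17. With all 4 libraries, all 18 lost the call with edgeR under the authors' size factors. All 18 also lost it with TMM factors and after filterByExpr. With DESeq2, 10 of the 18 lost it under the authors' size factors and 8 under its own, and 10 lost it with the replicate block. The other values kept their direction and their side of the threshold, which includes genes that were never called, except 3 that turned. These were GGT1 to 0.12 with DESeq2's own size factors, and CLN6 to 0.013 with TMM and 0.17 with DESeq2's own. TMM shifted the median of all listed genes by 0.80 and DESeq2's own factors by 0.96 (log2); the cause of the lost calls was not tested. AC243312.1 has no counts without EV replicate 2 and gives no value there. At these levels, 33 of 54 with a mean under 50 normalized counts, depth limits what can be shown.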
